A study of Mus musculus with 37 samples.

Results

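Skeletal muscle genes were measured in every mammary gland array of the series, and their levels differed between arrays far more than those of most other genes. The 36 genes described here code for proteins of the contractile apparatus, the calcium system and the energy supply of striated muscle fibres. They were chosen by name, from a list of established muscle genes, out of 18820 genes with a probe set annotated to 1 symbol. Where a gene had several such probe sets, the one with the highest mean over the 37 arrays was used. They fall into 14 genes of fast fibres, 7 of slow fibres and 15 used by both fibre types, and all 36 had a probe set. A filter on low values, the 30th percentile of the gene means (log2 4.04), was passed by 33 of them. Myh7, Myl2 and Tnni1, all slow fibre genes, did not pass, so 4 of the 7 slow fibre genes entered the tests.

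The arrays held total RNA of whole intact inguinal mammary glands of female BALB/c mice, which were BALB/cJ animals in the growth protocol. At 10 weeks of age they received 100 cGy of gamma rays, a dose of 30 or 10 cGy of silicon ions with 350 MeV/amu (Si), or sham treatment. Glands were taken 1, 4 or 12 weeks after exposure, with 3 arrays for each treatment and week, except sham at week 4 with 4. In all groups, sham included, the inguinal gland of the other side had been cleared by surgery before exposure. Week 1 glands came from mice still housed where they had been exposed, and the later glands from mice moved back to their home facility, so week, age and place cannot be told apart. Replicates are separate samples in the labels, which do not say whether each was a mouse of its own, so a p-value here rests on a spread that could be technical. Pairwise array correlations over all 35556 probe sets had a median of 0.978 and a range from 0.948 to 0.987. The 2 arrays least like the rest were sham week 1 replicate 3 and sham week 4 replicate 1.

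Striated muscle fibres contract when calcium, released from the sarcoplasmic reticulum through the ryanodine receptor, binds troponin on the actin filament and lets myosin heads pull on it. Fast and slow fibres use different genes for the same parts, among them the myosin heavy and light chains, the 3 troponin subunits, the calcium pump and myosin-binding protein C. The inguinal mammary gland itself is a fat pad with epithelial ducts beneath the skin, and skeletal muscle of the skin and body wall lies next to it. The adipocyte gene Plin1, which coats lipid droplets, measured 10.6 to 11.7 on all 37 arrays and the basal epithelial gene Krt17 measured 5.47 to 8.08, so the arrays carry the signals of a mammary fat pad. All levels here are log2 values, on which a step of 1 is a factor of 2. Since a probe set has its own brightness, levels are compared between arrays and not between genes.

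Promoters of 28 of the 36 genes were found in a RefSeq table (GRCm38.p6, 250 bases before to 50 after each gene start). Matches were sought on both strands for 3 motifs bound by muscle transcription factors. These were the E-box CANNTG of the MyoD family, the usual consensus of MEF2, whose first base is C or T and last base A or G, and the CArG box of serum response factor. Overlaps between motifs were not removed. An E-box was found for 24 of the 28 genes (85.7%), against 75.0% of the 27025 genes in the table. The MEF2 consensus was found for 5 of 28 (17.9%), against 3.70% of all genes. A strict form of it that starts with C and ends with G was found for 2 of 28 (7.14%), against 0.636%. The CArG box was found for 4 of 28 (14.3%), against 1.81%. The MEF2 matches were in the windows of Ttn, Xirp2, Myh1, Myh4 and Pvalb, of which Ttn and Xirp2 have the strict form, and the CArG matches in those of Acta1, Myl3, Myh4 and Ldb3. Such a match is a stretch of letters and shows no binding. The 200 bases before the start are shown for 4 genes with a match, 5′ to 3′ along the gene, because these 4 differ in role and in behaviour on the arrays. Ttn, at chr2:76982548-76982747 on the minus strand, codes for the giant spring protein titin and varied widely. Acta1, at chr8:123894776-123894975 on the minus strand, codes for the actin of the thin filament and varied widely. Myh4, at chr11:67237612-67237811 on the plus strand, codes for the fast myosin heavy chain IIb and had the widest range of all members. Myl3, at chr9:110763478-110763677 on the plus strand, codes for the slow essential myosin light chain and had a narrow range. Capitals mark the MEF2 match in Ttn, which starts 166 bases before the gene start. In Acta1 and Myl3 they mark the CArG match, which starts 73 and 85 bases before the start. In Myh4 they mark first a MEF2 match, 182 bases before the start, and then the CArG match, 104 bases before it.
Ttn: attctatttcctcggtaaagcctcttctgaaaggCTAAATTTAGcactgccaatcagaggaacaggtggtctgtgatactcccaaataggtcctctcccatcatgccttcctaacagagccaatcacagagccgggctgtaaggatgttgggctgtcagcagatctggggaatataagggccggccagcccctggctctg
Acta1: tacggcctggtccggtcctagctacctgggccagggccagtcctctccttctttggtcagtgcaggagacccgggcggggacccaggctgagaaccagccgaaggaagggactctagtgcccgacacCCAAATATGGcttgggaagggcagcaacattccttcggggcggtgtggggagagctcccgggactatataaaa
Myh4: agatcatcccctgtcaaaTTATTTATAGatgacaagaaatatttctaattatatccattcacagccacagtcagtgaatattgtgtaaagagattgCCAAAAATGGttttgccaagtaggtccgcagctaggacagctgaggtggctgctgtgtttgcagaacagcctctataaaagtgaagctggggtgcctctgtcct
Myl3: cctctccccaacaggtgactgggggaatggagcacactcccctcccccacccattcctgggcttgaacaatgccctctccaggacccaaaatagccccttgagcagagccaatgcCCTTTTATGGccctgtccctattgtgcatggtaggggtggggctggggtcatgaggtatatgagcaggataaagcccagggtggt

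Most of the 36 genes ranged over several log2 steps between arrays of the same treatment and week. The within-group standard deviation had a median of 1.63 over the 36 genes, against 0.196 over the 13174 genes tested. Among all genes tested, 29 had a standard deviation above that median, and 22 of the 36 were among the 100 widest. Between the lowest and the highest array, the 14 fast fibre genes spanned 14.4-fold to 259-fold, with a median of 64.0-fold. Genes of both fibre types spanned 4.25-fold to 103-fold, with a median of 35.3-fold. Slow fibre genes spanned 1.82-fold to 16.1-fold, with a median of 2.49-fold, close to the 1.94-fold of all genes tested. Most of them measured low. Myh7, Myl2 and Tnni1 had means of 3.725, 3.744 and 3.507, below the filter of 4.04. Those of Myl3 (4.04), Tnnc1 (4.16) and Tnnt1 (4.35) lay close above it, and that of Mybpc1, with the 16.1-fold range, was 4.61. Whether the narrow ranges reflect a signal near background was not tested. A range above 6 log2 steps was found for 12 of the 36 genes and for 17 of the 13174 tested (0.129%). The 12 groups of treatment and week held a median of 31.9% of the variance of the 36 genes, against 39.6% for all genes tested, so most of the spread lay between arrays of the same group. These shares are not corrected for the number of groups. The means of 12 small groups take up part of the variance even where groups do not differ.

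**Figure D1:**
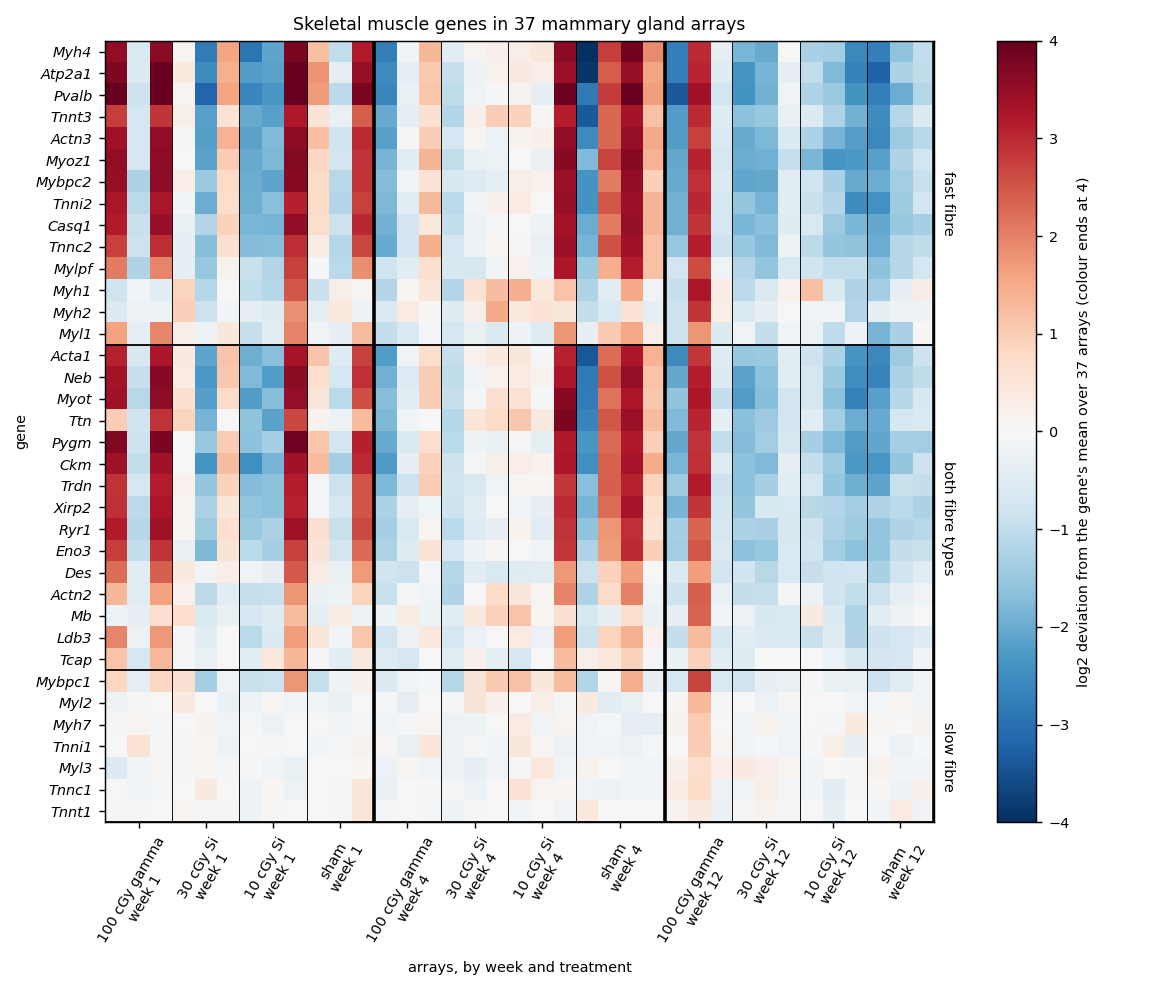
Colour gives the log2 deviation of each of the 36 genes (rows, by fibre class) from its own mean over 37 arrays (columns, by week and treatment). Single dark red columns, such as gamma week 12 replicate 2, stand beside blue ones in the same group, and the slow fibre rows stay pale except Mybpc1.

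The myosin heavy chains carry the force-producing heads of the thick filament. Myh4, the heavy chain of the fastest fibres, had the widest range, 259-fold. At week 1, Myh4 measured 11.52, 7.35 and 11.59 in the gamma arrays, 8.09, 5.18 and 9.54 in the 30 cGy Si arrays, 5.04, 5.86 and 11.73 in the 10 cGy Si arrays, and 9.19, 7.00 and 11.14 in the sham arrays. At week 4, Myh4 measured 5.22, 7.86 and 9.29 in the gamma arrays, 7.53, 8.09 and 8.17 in the 30 cGy Si arrays, 8.21, 8.42 and 11.59 in the 10 cGy Si arrays, and 3.81, 10.72, 11.82 and 9.86 in the sham arrays. At week 12, Myh4 measured 5.24, 10.96 and 7.61 in the gamma arrays, 6.13, 5.96 and 7.97 in the 30 cGy Si arrays, 6.69, 6.60 and 5.40 in the 10 cGy Si arrays, and 5.23, 6.37 and 6.99 in the sham arrays. Each irradiation overlapped with the sham arrays of its week, and both the lowest value of all 37 arrays, 3.81, and the highest, 11.82, came from sham arrays of week 4. Myh2, the heavy chain of the fast oxidative IIa fibres, spanned 16.3-fold and had another order of arrays. Myh2 at week 1 was 4.17, 4.47 and 4.46 in the gamma arrays, 5.67, 3.85 and 4.58 in the 30 cGy Si arrays, 4.35, 4.23 and 6.55 in the 10 cGy Si arrays, and 4.35, 5.11 and 4.51 in the sham arrays. Myh2 at week 4 was 4.12, 5.04 and 4.75 in the gamma arrays, 4.23, 4.90 and 6.23 in the 30 cGy Si arrays, 5.14, 5.26 and 5.15 in the 10 cGy Si arrays, and 3.76, 4.10, 5.27 and 4.31 in the sham arrays. Myh2 at week 12 was 3.85, 7.57 and 4.97 in the gamma arrays, 4.11, 4.35 and 4.68 in the 30 cGy Si arrays, 4.54, 4.59 and 3.54 in the 10 cGy Si arrays, and 4.35, 4.50 and 4.49 in the sham arrays. Its highest array was gamma week 12 replicate 2 at 7.57, and the next was 10 cGy Si week 1 replicate 3 at 6.55. The gamma arrays of week 1 with the high Myh4 of 11.52 and 11.59 had a Myh2 of only 4.17 and 4.46. Myh1, the IIx heavy chain, spanned 24.4-fold, with 7.64 in gamma week 12 replicate 2 and 6.86 in 10 cGy Si week 1 replicate 3 as its highest values. The genes of these heavy chains have near-identical stretches, and cross-hybridisation between their probe sets was not tested. Myh7, the heavy chain of slow fibres and heart, spanned 2.61-fold. The week 1 values of Myh7 were 3.66, 3.83 and 3.64 in the gamma arrays, 3.73, 3.86 and 3.56 in the 30 cGy Si arrays, 3.66, 3.50 and 3.71 in the 10 cGy Si arrays, and 3.71, 3.61 and 3.68 in the sham arrays. The week 4 values of Myh7 were 3.59, 3.68 and 3.85 in the gamma arrays, 3.49, 3.53 and 3.70 in the 30 cGy Si arrays, 4.06, 3.60 and 3.83 in the 10 cGy Si arrays, and 3.58, 3.68, 3.37 and 3.38 in the sham arrays. The week 12 values of Myh7 were 3.87, 4.75 and 3.75 in the gamma arrays, 3.61, 3.87 and 3.58 in the 30 cGy Si arrays, 3.74, 3.63 and 4.11 in the 10 cGy Si arrays, and 3.81, 3.71 and 3.87 in the sham arrays. On 36 of the 37 arrays it stayed between 3.37 and 4.11, and gamma week 12 replicate 2 stood apart at 4.75.

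The myosin light chains bind the necks of the myosin heads, and myosin-binding protein C lies along the thick filament. The fast light chains Mylpf and Myl1 spanned 29.2-fold and 14.4-fold. The slow light chains Myl2 and Myl3 spanned 3.28-fold and 2.40-fold. Mybpc2, the fast myosin-binding protein C, spanned 64.9-fold. Mybpc1, the slow form, spanned 16.1-fold, more than any other slow fibre gene, and its highest array was again gamma week 12 replicate 2 at 7.30.

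**Figure D2:**
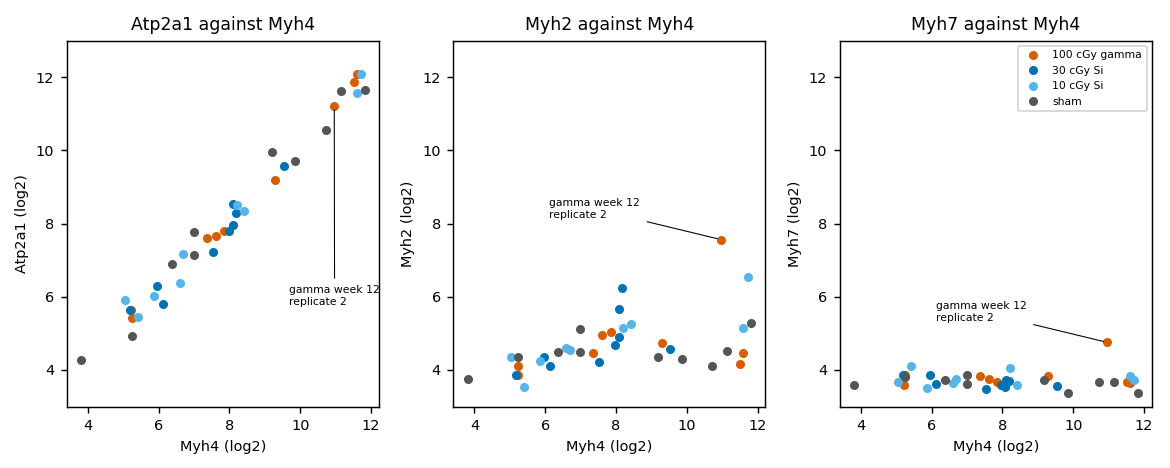
Each point is 1 of 37 arrays, with the log2 level of Myh4 on the horizontal axis and that of Atp2a1, Myh2 or Myh7 on the vertical axis, coloured by treatment. Atp2a1 runs from 4.26 to 12.1 along with Myh4, while Myh7 stays between 3.37 and 4.11 except for the 4.75 of gamma week 12 replicate 2.

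The thin filament genes code for actin and for the troponins that make it respond to calcium. Acta1, skeletal muscle actin, spanned 103-fold. At week 1, Acta1 measured 11.57, 7.83 and 11.71 in the gamma arrays, 8.83, 6.36 and 9.63 in the 30 cGy Si arrays, 6.54, 6.82 and 11.78 in the 10 cGy Si arrays, and 9.64, 7.97 and 11.23 in the sham arrays. At week 4, Acta1 measured 6.24, 8.35 and 9.19 in the gamma arrays, 7.57, 8.65 and 8.87 in the 30 cGy Si arrays, 8.93, 8.42 and 11.57 in the 10 cGy Si arrays, and 5.09, 10.71, 11.72 and 9.86 in the sham arrays. At week 12, Acta1 measured 5.92, 11.31 and 7.96 in the gamma arrays, 6.97, 7.00 and 8.02 in the 30 cGy Si arrays, 7.67, 7.21 and 6.12 in the 10 cGy Si arrays, and 5.92, 7.04 and 7.66 in the sham arrays. Its 8 highest arrays included gamma, 10 cGy Si and sham arrays, and each irradiation overlapped with the sham arrays of its week. Tnni2, the inhibitory subunit of fast troponin, spanned 63.2-fold. Tnni2 at week 1 was 10.22, 5.87 and 10.23 in the gamma arrays, 6.85, 4.98 and 7.65 in the 30 cGy Si arrays, 5.01, 5.27 and 10.07 in the 10 cGy Si arrays, and 7.68, 5.77 and 9.68 in the sham arrays. Tnni2 at week 4 was 5.15, 6.51 and 8.24 in the gamma arrays, 5.88, 6.85 and 7.15 in the 30 cGy Si arrays, 7.29, 6.97 and 10.43 in the 10 cGy Si arrays, and 4.56, 9.42, 10.39 and 8.31 in the sham arrays. Tnni2 at week 12 was 5.04, 9.96 and 6.26 in the gamma arrays, 5.42, 5.09 and 6.52 in the 30 cGy Si arrays, 6.06, 5.78 and 4.45 in the 10 cGy Si arrays, and 4.54, 5.54 and 6.20 in the sham arrays. It was highest in 10 cGy Si week 4 replicate 3 and lowest in 10 cGy Si week 12 replicate 3. Tnni1, the slow counterpart of Tnni2, spanned 2.49-fold. The week 1 values of Tnni1 were 3.49, 4.06 and 3.46 in the gamma arrays, 3.43, 3.60 and 3.27 in the 30 cGy Si arrays, 3.50, 3.46 and 3.52 in the 10 cGy Si arrays, and 3.38, 3.45 and 3.65 in the sham arrays. The week 4 values of Tnni1 were 3.55, 3.21 and 4.00 in the gamma arrays, 3.28, 3.45 and 3.40 in the 30 cGy Si arrays, 3.97, 3.59 and 3.27 in the 10 cGy Si arrays, and 3.38, 3.36, 3.28 and 3.45 in the sham arrays. The week 12 values of Tnni1 were 3.49, 4.50 and 3.57 in the gamma arrays, 3.36, 3.44 and 3.35 in the 30 cGy Si arrays, 3.44, 3.76 and 3.19 in the 10 cGy Si arrays, and 3.52, 3.29 and 3.41 in the sham arrays. It showed no counterpart of the high Tnni2 arrays of week 1 and week 4, and its highest value was the 4.50 of gamma week 12 replicate 2. The other fast troponin genes, Tnnt3 and Tnnc2, spanned 105-fold and 43.5-fold, against 1.82-fold and 2.30-fold for the slow genes Tnnt1 and Tnnc1. Neb, the nebulin that runs along the thin filament, spanned 89.9-fold and had the closest likeness to the other members, with a Pearson correlation of 0.994 over 37 arrays.

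Genes of the Z-disc, where the sarcomeres join, and of the elastic filament ranged more unevenly. Ttn, titin, spanned 86.0-fold. At week 1, Ttn measured 7.96, 6.19 and 9.87 in the gamma arrays, 7.88, 5.13 and 6.97 in the 30 cGy Si arrays, 5.36, 4.85 and 9.64 in the 10 cGy Si arrays, and 7.13, 6.76 and 8.26 in the sham arrays. At week 4, Ttn measured 5.18, 6.80 and 6.96 in the gamma arrays, 5.83, 7.45 and 7.74 in the 30 cGy Si arrays, 8.06, 7.32 and 10.75 in the 10 cGy Si arrays, and 4.32, 9.46, 10.45 and 8.25 in the sham arrays. At week 12, Ttn measured 5.22, 10.02 and 6.61 in the gamma arrays, 5.31, 5.54 and 6.21 in the 30 cGy Si arrays, 6.57, 5.57 and 4.98 in the 10 cGy Si arrays, and 4.95, 6.26 and 6.39 in the sham arrays. Each irradiation overlapped with sham for Ttn in every week, and its highest array was 10 cGy Si week 4 replicate 3. A second Ttn probe set disagreed on 1 array in particular, gamma week 1 replicate 1, where it measured 10.18 and the one used measured 7.96, although the 2 probe sets correlated at 0.951 over 37 arrays. Actn3, the alpha-actinin of fast fibres, spanned 71.7-fold and Actn2, which all fibres use, spanned 12.5-fold. Myoz1 and Myot, Z-disc proteins that bind alpha-actinin, spanned 65.0-fold and 87.0-fold. Xirp2, an actin-binding protein, spanned 35.3-fold. Ldb3, which also binds alpha-actinin, spanned 8.95-fold, and the titin cap gene Tcap spanned 4.25-fold. Des, desmin, the intermediate filament around the Z-discs, is also made by smooth muscle, and it spanned 13.6-fold.

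Calcium handling genes ranged as widely as the contractile ones. Atp2a1, the pump that returns calcium to the sarcoplasmic reticulum of fast fibres, spanned 229-fold. Atp2a1 at week 1 was 11.88, 7.61 and 12.10 in the gamma arrays, 8.54, 5.63 and 9.58 in the 30 cGy Si arrays, 5.92, 6.03 and 12.10 in the 10 cGy Si arrays, and 9.95, 7.78 and 11.63 in the sham arrays. Atp2a1 at week 4 was 5.64, 7.80 and 9.21 in the gamma arrays, 7.24, 7.97 and 8.29 in the 30 cGy Si arrays, 8.51, 8.35 and 11.57 in the 10 cGy Si arrays, and 4.26, 10.57, 11.64 and 9.72 in the sham arrays. Atp2a1 at week 12 was 5.43, 11.20 and 7.67 in the gamma arrays, 5.81, 6.29 and 7.80 in the 30 cGy Si arrays, 7.18, 6.39 and 5.44 in the 10 cGy Si arrays, and 4.93, 6.90 and 7.15 in the sham arrays. Its highest arrays were gamma week 1 replicate 3 and 10 cGy Si week 1 replicate 3, both at 12.10, and each irradiation overlapped with the sham arrays of its week. Pvalb, parvalbumin, a soluble calcium buffer of fast fibres, spanned 198-fold. The week 1 values of Pvalb were 10.83, 5.87 and 10.96 in the gamma arrays, 6.78, 3.51 and 8.27 in the 30 cGy Si arrays, 4.08, 4.37 and 10.95 in the 10 cGy Si arrays, and 8.40, 5.63 and 10.45 in the sham arrays. The week 4 values of Pvalb were 4.08, 6.44 and 7.81 in the gamma arrays, 5.67, 6.51 and 6.60 in the 30 cGy Si arrays, 6.82, 6.37 and 10.62 in the 10 cGy Si arrays, and 3.86, 9.48, 10.67 and 8.35 in the sham arrays. The week 12 values of Pvalb were 3.33, 10.04 and 5.92 in the gamma arrays, 4.30, 4.78 and 6.52 in the 30 cGy Si arrays, 5.46, 5.19 and 4.31 in the 10 cGy Si arrays, and 3.95, 4.69 and 5.56 in the sham arrays. The highest Pvalb value was again in gamma week 1 replicate 3, and the lowest, 3.33, came from gamma week 12 replicate 1. Casq1, the calcium store protein of the fast reticulum, spanned 48.8-fold. Ryr1, the calcium release channel, and Trdn, triadin, which links the channel to calsequestrin, spanned 32.0-fold and 39.3-fold. Trdn had 19 probe sets, and those not used correlated with the one used at 0.409 to 0.988.

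The energy genes serve the phosphate reserve, glycogen use and glycolysis, and the oxygen store of the fibre. Ckm, the muscle creatine kinase, spanned 57.4-fold. At week 1, Ckm measured 11.65, 7.27 and 11.62 in the gamma arrays, 8.28, 5.91 and 9.50 in the 30 cGy Si arrays, 5.82, 6.41 and 11.62 in the 10 cGy Si arrays, and 9.50, 6.91 and 11.24 in the sham arrays. At week 4, Ckm measured 6.01, 7.88 and 9.19 in the gamma arrays, 7.43, 8.17 and 8.49 in the 30 cGy Si arrays, 8.51, 8.42 and 11.48 in the 10 cGy Si arrays, and 5.81, 10.63, 11.56 and 9.74 in the sham arrays. At week 12, Ckm measured 6.44, 11.18 and 7.73 in the gamma arrays, 6.62, 6.50 and 7.91 in the 30 cGy Si arrays, 7.31, 6.82 and 5.97 in the 10 cGy Si arrays, and 5.94, 6.73 and 7.44 in the sham arrays. The high and low arrays were those of Myh4, with sham week 4 replicate 1 lowest at 5.81. A second Ckm probe set ranged only from 3.73 to 5.88 and correlated with the one used at 0.772. Pygm, the glycogen phosphorylase of muscle, spanned 73.9-fold, and Eno3, the muscle enolase, 27.6-fold. Mb, myoglobin, which stores oxygen in oxidative fibres, spanned 11.7-fold. Mb at week 1 was 5.04, 4.95 and 5.95 in the gamma arrays, 5.98, 4.73 and 5.01 in the 30 cGy Si arrays, 4.62, 4.82 and 6.52 in the 10 cGy Si arrays, and 4.90, 5.59 and 5.04 in the sham arrays. Mb at week 4 was 5.07, 5.58 and 5.08 in the gamma arrays, 4.86, 5.67 and 6.21 in the 30 cGy Si arrays, 6.43, 5.38 and 5.89 in the 10 cGy Si arrays, and 4.64, 4.97, 5.99 and 5.03 in the sham arrays. Mb at week 12 was 4.90, 7.62 and 5.19 in the gamma arrays, 5.07, 4.66 and 4.70 in the 30 cGy Si arrays, 5.66, 4.74 and 4.07 in the 10 cGy Si arrays, and 4.84, 5.08 and 5.31 in the sham arrays. Gamma week 12 replicate 2 was highest at 7.62, more than 1 log2 step above the next array at 6.52.

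These genes moved between arrays almost as 1 block. The first principal component of the 36 genes held 94.3% of their variance over 37 arrays, and that of the 13174 tested genes held 25.4% of theirs. The Pearson correlation of a gene with the mean of the other members had a median of 0.984 over the 14 fast fibre genes and 0.979 over the 15 of both fibre types. It was lower for Myh2 (0.54), Myh1 (0.62), Mb (0.62) and Tcap (0.80). Over the 7 slow fibre genes its median was 0.137, from −0.17 for Myl3 to 0.80 for Mybpc1. All these correlations are descriptions across arrays that were normalised together, and arrays of 12 groups enter each. The second component held 2.41% of the variance, and its largest weights belonged to Myh1 (0.58), Myh2 (0.43), Mb (0.34) and Mybpc1 (0.34). Its highest arrays were gamma week 12 replicate 2 (0.48), 30 cGy Si week 4 replicate 3 (0.33) and 10 cGy Si week 4 replicate 1 (0.28), and its lowest was gamma week 1 replicate 1 (−0.34).

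Fast and slow fibre genes were also summarised as scores, the mean log2 deviation of a class from its own mean over the 37 arrays. The fast score reached 2.58 and 2.74 in gamma week 1 replicates 1 and 3, 3.19 in 10 cGy Si week 1 replicate 3 and 2.35 in sham week 1 replicate 3. At week 4 it reached 2.97 in 10 cGy Si replicate 3 and 3.03 in sham replicate 3, and at week 12 it reached 2.90 in gamma replicate 2. These 7 arrays came from 3 of the 4 treatments, all but 30 cGy Si, whose highest fast score was 0.79. The lowest fast scores were −2.22 in sham week 4 replicate 1 and −2.12 in sham week 12 replicate 1. The slow score lay between −0.31 and 0.35 on 36 arrays and was 1.11 in gamma week 12 replicate 2.

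**Figure D3:**
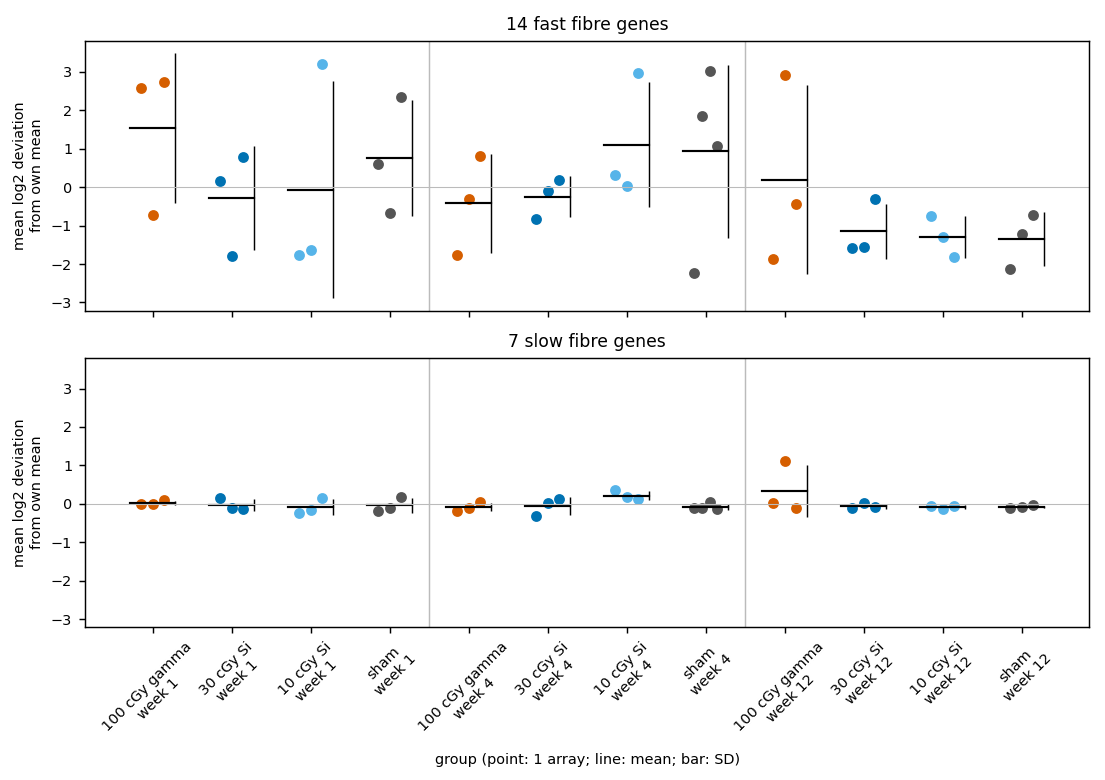
Points are single arrays, horizontal lines group means and vertical bars the SD, for the mean log2 deviation of 14 fast fibre genes (upper panel) and 7 slow fibre genes (lower panel) in the 12 groups. Fast scores run from −2.22 to 3.19, with each irradiation overlapping the sham arrays of its week, and the only slow score above 0.35 is that of gamma week 12 replicate 2.

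Gamma week 12 replicate 2 combined a high level of fast fibre genes with the highest slow fibre levels of the series. It was the highest of the 37 arrays for 6 of the 7 slow fibre genes and ranked 3 for Tnnt1. Myl2, the slow regulatory light chain, measured 5.03 there, against at most 4.25 elsewhere. Tnnc1, the troponin C of slow and heart muscle, measured 4.89 there, against at most 4.72 elsewhere. The oxidative fibre genes Myh2 and Mb also stood above all other arrays by more than 1 log2 step, and they were the only 2 of 18820 genes to do so on this array. Trdn and Actn2 also had their highest values there. In the other 6 arrays with a fast score above 2, the slow scores lay between −0.01 and 0.19. Without Mybpc1 they lay between −0.20 and 0.19.

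Other muscle genes that were not members followed the same arrays. The 10 genes most like the mean of the 33 members that passed the filter, by Pearson correlation over 37 arrays, were Klhl31 (0.986), Klhl41 (0.982), Pgam2 (0.978), Apobec2 (0.975), Cox6a2 (0.972), Myom2 (0.970), Cacna1s (0.970), Txlnb (0.968), Ampd1 (0.967) and Ppp1r3a (0.967). Among them, Pgam2 is the muscle phosphoglycerate mutase, Cox6a2 a muscle subunit of cytochrome oxidase, Myom2 an M-band protein and Cacna1s the voltage sensor that opens the calcium release channel. A correlation above 0.9 was found for 53 of the 13141 other genes tested, and 25 of these were on lists of other muscle genes. On those lists it exceeded 0.8 for 14 of 20 sarcomere genes that passed the filter, 6 of 14 genes of calcium coupling and 10 of 18 energy genes. It also did for 1 of 6 myogenic and satellite cell genes, 1 of 5 genes of the neuromuscular junction and 1 of 2 atrophy ligase genes. Myf6, a transcription factor of mature fibres, was the myogenic one, with a 15.1-fold range and a correlation of 0.951. Myod1, the factor of muscle precursors, spanned 2.82-fold. It had a median of 3.73 and did not pass the filter, so no correlation was taken for it.

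The same correlation was taken for markers of other tissues. It exceeded 0.8 for 0 of 4 cardiac, 0 of 11 smooth muscle, 0 of 15 mammary epithelium, 0 of 12 white adipocyte, 0 of 4 brown adipocyte, 0 of 3 keratinised skin, 0 of 6 nerve and 0 of 6 tendon and cartilage genes. Among the 13141 other genes tested it exceeded 0.8 for only 100, so a count of 0 on such short lists says little. Genes under the filter were not counted, and 4 of the 10 listed cardiac and 3 of the 15 listed skin genes passed it. The T and B cell genes ranged as widely, with list means from −1.98 to 2.91, and 0 of 10 had a correlation above 0.8. Arrays with a fast score above 2 lay on both sides of 0 for these genes. At week 1 the T and B means were 0.53 and 0.17 in gamma replicates 1 and 3. They were 1.81 in 10 cGy Si week 1 replicate 3 and 2.91 in sham week 1 replicate 3. In replicate 3 of week 4 they were −1.25 after 10 cGy Si and −1.31 after sham. In gamma week 12 replicate 2 the mean was −1.44. Sham week 4 replicate 1, the array with the lowest fast score, had the highest mean of the brown adipocyte genes (1.09) of all 37 arrays, while its list of other muscle energy genes lay at −0.02. On this array 7 of 11 smooth muscle genes and 5 of 16 mammary epithelium genes had their lowest value of the series. It was also the array least like the rest, with a median correlation of 0.9645. How many of all genes were lowest there was not counted. The mean of the smooth muscle genes was −0.67 there, against −0.23 to 0.43 on the other arrays, and that of the epithelium genes was −0.32, against −0.73 to 0.83. Acta2, smooth muscle actin, measured 9.74 there, and Krt5, a basal epithelial keratin, 6.74. The part of these other tissues in the muscle results was not tested. In whole tissue, fewer cells of a type and less RNA per cell cannot be told apart.

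No muscle gene differed between an irradiation and sham by more than the spread between replicates allows to call. In a limma fit of the 12 group means with Benjamini-Hochberg adjustment over 13174 genes, 0 of the 33 members that passed the filter were called at an adjusted p under 0.05 in any of 16 comparisons. The standard errors were large, for example 1.77 for Myh4 and 1.83 for Pvalb in a comparison of 3 against 3 arrays, so differences of several-fold lie within the error. The median differences below are descriptions over all 36 members, beside a median of all tested genes between −0.0113 and 0.0351.

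After 100 cGy of gamma rays the median difference from sham was 0.79 at week 1, −1.43 at week 4 and 1.40 at week 12. At week 1, limma called 0 members, against 0.0228% of all genes tested, and listed 0 at an unadjusted p under 0.05, against 7.82%. Myot (1.30 ± 1.52, SE) and Trdn (1.24 ± 1.30) had the highest differences, and Myh2 (−0.29 ± 0.64) and Myh1 (−0.24 ± 0.91) the lowest. The median was 1.99 without gamma replicate 2 and 0.13 when sham replicate 2 was left out. At week 4, limma called 0 members, against 0% of all genes, and listed 0 at an unadjusted p under 0.05, against 5.56%. Casq1 (−1.99 ± 1.30) and Pvalb (−1.98 ± 1.72) were lowest, and Myh2 (0.27 ± 0.60) and Tnni1 (0.22 ± 0.19) highest. The median was −2.46 leaving out sham replicate 1 and −0.63 leaving out sham replicate 3.

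At week 12 after gamma rays all 36 differences were above 0, and limma called 0 members, against 0% of all genes. Neb (1.82 ± 1.54) and Atp2a1 (1.77 ± 1.70) had the highest differences and Tnnt1 (0.06 ± 0.15) the lowest. The median of 1.40 was 0.13 without gamma replicate 2 and was 2.32 without gamma replicate 1. At an unadjusted p under 0.05 limma listed 1 member, against 2.82% of all genes tested. This was the slow light chain Myl3, with 4.25, 4.75 and 4.31 in the gamma arrays and 4.22, 3.94 and 3.94 in the sham arrays. The Myl3 groups did not overlap, which held for 1 of the 36 members and for 3.17% of all genes tested in this direction. Its difference was 0.41 ± 0.15 (limma, adjusted p = 0.99984). Over the mean of the 3 weeks, the median for gamma rays was 0.30, with 0 members called, against 0% of all genes, and 0 listed by limma at an unadjusted p under 0.05, against 5.36%. Without gamma week 12 replicate 2 this median was −0.08.

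After 30 cGy of silicon ions the median difference from sham was −0.81 at week 1, −1.14 at week 4 and 0.17 at week 12. At week 1, limma called 0 members, against 0.0228% of all genes, and listed 0 at an unadjusted p under 0.05, against 12%. Pvalb (−1.97 ± 1.83) and Atp2a1 (−1.87 ± 1.70) were lowest, and Myl2 (0.18 ± 0.23) and Myh1 (0.12 ± 0.91) highest. The median was −0.04 leaving out sham replicate 3 and −1.45 leaving out sham replicate 2. At week 4, 0 members were called, against 0%, and limma listed 0 at an unadjusted p under 0.05, against 8.08%. Myoz1 (−1.99 ± 1.37) and Pvalb (−1.83 ± 1.72) were lowest and Myh2 (0.76 ± 0.60) highest. The median was −2.33 leaving out sham replicate 1 and −0.38 leaving out sham replicate 3. At week 12, 0 members were called, against 0%, and limma listed 0 at an unadjusted p under 0.05, against 5.28%. Myl1 (0.61 ± 0.73) was highest and Mb (−0.27 ± 0.54) lowest. The median was −0.15 without 30 cGy Si replicate 3. Over the 3 weeks the median was −0.68, with 0 members called by limma, against 0.0304% of all genes, and 0 listed at an unadjusted p under 0.05, against 14.7%. Myoz1 (−1.20 ± 0.83) and Pvalb (−1.11 ± 1.04) were lowest there.

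After 10 cGy of silicon ions the median difference from sham was −0.60 at week 1, 0.14 at week 4 and −0.0005 at week 12. At week 1, limma called 0 members, against 0.0835% of all genes, and listed 0 at an unadjusted p under 0.05, against 5.4%. Atp2a1 (−1.77 ± 1.70) and Pvalb (−1.69 ± 1.83) were lowest and Tcap (0.48 ± 0.46) highest. The median was −2.18 without 10 cGy Si replicate 3 and 0.06 without sham replicate 3. Myl3 did not overlap between the groups, with 3.99, 3.91 and 3.74 in the 10 cGy Si arrays and 4.01, 4.01 and 4.11 in the sham arrays. It was the only 1 of the 36 members to do so in this direction, against 3.86% of all genes. At week 4, 0 members were called, against 0%. Limma listed 1 member at an unadjusted p under 0.05, against 3.17% of all genes. This was Tnnc1, with 4.72, 4.27 and 4.23 in the 10 cGy Si arrays and 4.02, 3.92, 3.97 and 4.06 in the sham arrays. Its groups did not overlap, as for 1 of the 36 members and 2.24% of all genes in this direction, and its difference was 0.41 ± 0.17 (limma, adjusted p = 0.99981). Myh1 (1.08 ± 0.85) and Mybpc1 (0.96 ± 0.69) had the highest differences at week 4 and Myoz1 (−0.36 ± 1.37) the lowest. The median was −0.87 leaving out sham replicate 1 and 0.67 leaving out sham replicate 3. At week 12, 0 members were called, against 0%, and limma listed 0 at an unadjusted p under 0.05, against 4.7%. Myoz1 (−0.78 ± 1.47) was lowest and Myl1 (0.54 ± 0.73) highest. The median was −0.27 leaving out sham replicate 1 and 0.20 leaving out sham replicate 3. Over the 3 weeks the median was −0.17, with 0 members called by limma, against 0%, and 0 listed at an unadjusted p under 0.05, against 6.71%. It was −0.71 without 10 cGy Si week 1 replicate 3 and 0.04 without sham week 1 replicate 3.

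**Figure D4:**
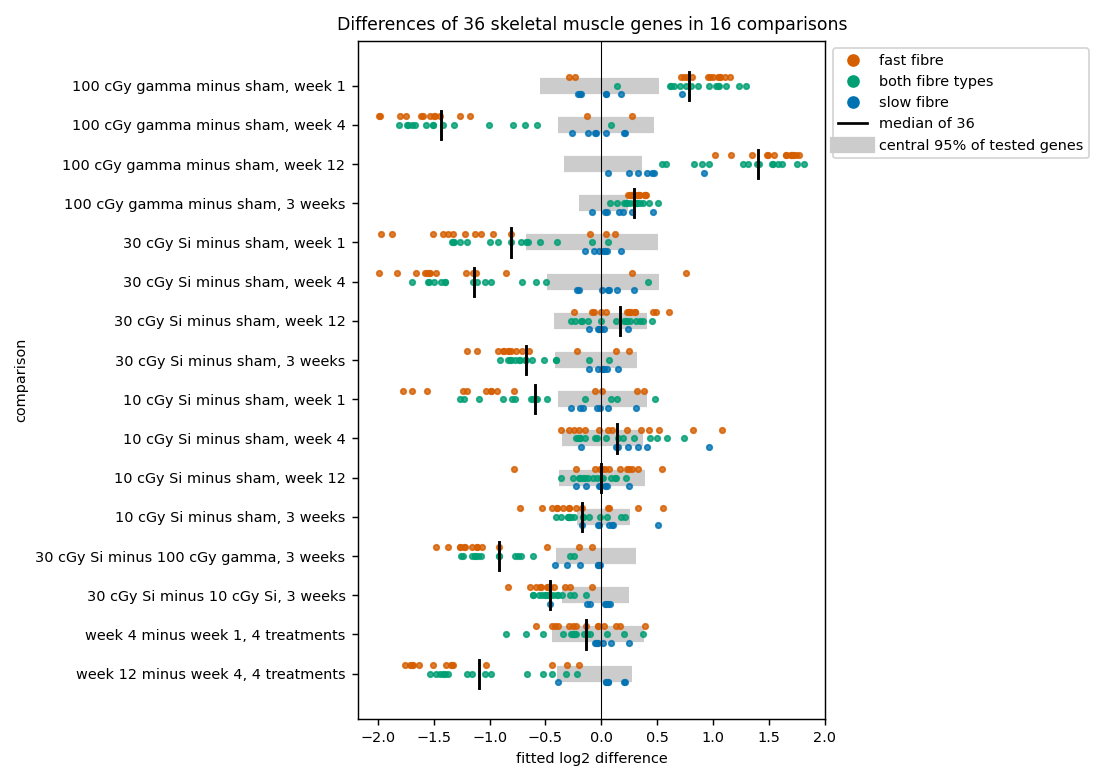
Points give the fitted log2 difference of each of 36 genes in 16 comparisons, black bars their median and grey bars the central 95% of the 13174 genes tested. Fast fibre genes and genes of both types reach −1.99 and 1.82, while the slow fibre genes stay nearer 0, and limma called 0 members in every comparison.

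The irradiations were also set against each other over the 3 weeks. For 30 cGy Si against gamma rays the median difference was −0.92, and 0 of the 36 members lay above 0. Limma called 0 of them, against 0.00759% of all genes, and listed 0 at an unadjusted p under 0.05, against 13.5%. Myoz1 (−1.48 ± 0.85) and Pvalb (−1.37 ± 1.06) were lowest and Myl2 (−0.01 ± 0.13) nearest 0. The median was −0.48 without gamma week 12 replicate 2 and −1.36 without gamma week 1 replicate 2. For 30 cGy Si against 10 cGy Si the median was −0.46, with 0 members called by limma, against 0.0228%, and 0 listed at an unadjusted p under 0.05, against 6.51%. Mylpf (−0.84 ± 0.62) was lowest, and the median was 0.06 without 10 cGy Si week 1 replicate 3. The T and B cell genes, which are no muscle genes, lay on the same side in these comparisons, but not in every comparison with sham. Their median was −1.35 for 30 cGy Si against gamma rays, with 0 of 10 above 0, and −1.03 for 30 cGy Si against 10 cGy Si. It was −1.38 for 30 cGy Si against sham over the 3 weeks. Limma called 0 of the 10 in each, and listed 3, 0 and 5 at an unadjusted p under 0.05. Against sham after gamma rays their medians were −1.025, 1.196 and −0.525 at weeks 1, 4 and 12. Those of the 36 members were 0.79, −1.43 and 1.40, each on the other side of 0. The sides also differed for gamma rays over the 3 weeks and for 30 cGy Si at week 12. They differed as well for 10 cGy Si at weeks 1 and 4. In the remaining comparisons with sham the sides were the same. The part of these cells in the muscle values was not tested. The comparisons with sham share the sham arrays of each week, so their values for a gene are not independent of each other.

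Between weeks, limma called 0 members, and the arrays with high fast fibre levels lay mostly at weeks 1 and 4. The fast score lay above 0 on 7 of 12 arrays at week 1, on 8 of 13 at week 4 and on 1 of 12 at week 12, the last being gamma replicate 2. Its median was 0.37 at week 1, 0.20 at week 4 and −1.27 at week 12. For week 12 against week 4 over the 4 treatments, the median difference of the 36 members was −1.10. Limma called 0 members, against 1.64% of all genes. At an unadjusted p under 0.05 it listed 8 members, against 15.9% of all genes tested. Of these, 7 had a lower value at week 12 (9.1% of all genes did so in this direction) and 1 a higher value (6.8%). The 7 were Myoz1 (−1.71 ± 0.72), Actn3 (−1.69 ± 0.74), Myot (−1.53 ± 0.75), Tnni2 (−1.51 ± 0.72), Ttn (−1.40 ± 0.65), Eno3 (−1.20 ± 0.55) and Ldb3 (−0.67 ± 0.31), and Myl3 (0.21 ± 0.07) was the 1 above 0. Their adjusted p-values in limma lay between 0.134 for Myl3 and 0.314 for Myot. Pvalb had the lowest difference (−1.76 ± 0.90). The median was −1.44 without gamma week 12 replicate 2 and −0.85 without 10 cGy Si week 4 replicate 3.

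For week 4 against week 1 the median was −0.13, and limma called 0 members, against 25.8% of all genes. At an unadjusted p under 0.05 it listed 1 member, against 36.4% of all genes. This was Des, desmin, with a difference of −0.85 ± 0.37 (limma, adjusted p = 0.0914). Without gamma week 1 replicate 2 the difference of Des was −1.08 (limma, adjusted p = 0.0209), and without 10 cGy Si week 4 replicate 3 it was −1.03 (adjusted p = 0.0374). Myh1 (0.39 ± 0.45) and Ttn (0.37 ± 0.65) had the highest differences. The Ttn value depended on the probe set: with its 2 probe sets averaged the difference was 0.098. The median was 0.18 without 10 cGy Si week 1 replicate 3 and −0.43 without gamma week 1 replicate 2. Limma called 25.8% of all genes in this comparison, counting both directions, a larger share than on the lists of other muscle genes. The counts for other tissues below stand beside the same 25.8%. Of 65 genes on the 6 lists of other muscle genes that passed the filter, limma called 0 higher and 3 lower at week 4. These were the insulin-responsive glucose transporter Slc2a4 (−0.56 ± 0.15, adjusted p = 0.0052), the aldolase Aldoa (−0.48 ± 0.14, adjusted p = 0.00997) and the glycogen synthase Gys1 (−0.30 ± 0.10, adjusted p = 0.0256), and all 3 fell. Genes of white adipocytes also fell in this comparison, 5 of 12, among them Plin1 (−0.56 ± 0.07, limma, adjusted p = 1.25e-06) and Lipe (−0.47 ± 0.05, adjusted p = 3.74e-07). Of 11 smooth muscle genes 3 were called lower, Smtn (−0.38 ± 0.08, limma, adjusted p = 0.00115), Hspb8 (−0.43 ± 0.11, adjusted p = 0.00365) and Synpo2 (−0.30 ± 0.11, adjusted p = 0.0382). The nerve and Schwann cell genes Pmp22 and Pllp were also called lower. Dio2 of the brown adipocyte list and Cnmd of the tendon and cartilage list were called higher. The part of these other tissues in the values of Des, Slc2a4, Aldoa and Gys1 was not tested. On the 6 lists of other muscle genes limma called 0 of 65 genes in each of the other 15 comparisons. At an unadjusted p under 0.05 the count there was at most 7, for 30 cGy Si against gamma rays (13.5% of all genes).

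A test for any difference among the 12 groups called 0 members in limma, against 15.8% of all genes, and listed 1 at an unadjusted p under 0.05, against 29.1%. This was Myl3, with an adjusted p of 0.0515 in limma, the smallest of the 33. Its mean over 37 arrays was 4.0404, just above the filter of 4.0394, and its correlation with the other members was −0.17. A test of whether an irradiation effect differed between weeks called 0 members in limma, against 0% of all genes, and listed 2 at an unadjusted p under 0.05, against 3.96%. These were Myl3 and Tnnc1, both slow fibre genes, each with an adjusted p of 0.99957 in limma.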

How the data were processed

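Each of 37 samples of mammary gland RNA had its own Affymetrix array. The authors deposited log2 values per probe set. The submitters' processing notes name RMA (background correction, normalisation between arrays and summary of probes) and the oligo package, with versions not given in the sources used here. No read depth applies to arrays. Normalising arrays together can shift a gene slightly where many other genes differ between arrays.

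Probe sets were named through the supplied platform annotation, and those with 1 symbol were used (21218 of 35556). Titles gave the groups. A limma model (version 3.58.1, R 4.3.3) with 12 group means was fitted to 37 arrays for 13174 genes above the filter (25 residual and 3.4 prior degrees of freedom). Contrasts, 2 F tests and their p-values were two-sided and adjusted by Benjamini-Hochberg within a contrast, with calls under 0.05. The test was also run on simulated data in which genes varied independently. That check does not cover genes that move as 1 block, as the members do. Intervals given as ± are limma standard errors. Differences of genes under the filter come from the same fit without it and have no adjusted p.

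The members, the lists and the alternatives were chosen with earlier results of these data known. Named genes were all members, the 2 highest and 2 lowest in each contrast, the 10 non-members most alike and up to 4 genes per list by range. Not every one is printed. Genes named for other reasons, such as those called on a list, were picked after their values were seen. Alternatives were other filters, averaged probe sets, quantile normalisation, other eBayes settings, array weights, a replicate block, fits of single contrasts and fits without arrays. The replicate numbers did not pair arrays: deviations of arrays with the same number correlated at 0.0169 on average, and those of other arrays at −0.00796.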

Additional observations from a re-analysis of the deposited data

Results flagged for a closer look

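Tnnt1, the slow troponin T, had 1 array far from the other 3 in sham week 4. It measured 4.77 in replicate 1, against 4.32, 4.36 and 4.32 in the others, and the gap was 0.905 of the group's range, above Dixon's critical value of 0.829 for 4 arrays. Dixon's test was applied to 40 sets of values, and chance flags about 1 in 20, so 1 flag is not unusual. The same array had the lowest levels of Myh4, Atp2a1 and Acta1 in the series.

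Acta1, skeletal muscle actin, lay above sham after 30 cGy Si at week 12 (0.456) and below sham at week 4 (−0.984), which are 1.44 log2 steps apart. Every 30 cGy Si array was above the sham mean at week 12 and below it at week 4, which was sought in 135 combinations of gene or score, irradiation and pair of weeks, and that comparison of signs is not a test. The test of whether an irradiation effect differed between weeks gave Acta1 an adjusted p of 0.99957 in limma (unadjusted p = 0.593).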

How the results depend on the processing

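With 3 or 4 arrays a group and widely differing muscle levels, small differences could not be seen. Except for the cases below, the members called in each of the 16 comparisons and 2 F tests stayed at 0 under other filters, probe set means, quantile normalisation, other eBayes settings and single-contrast fits, and with the replicate block, which also called 0 members in each. With array weights, 1 member was called between weeks 12 and 4, Myl3 (0.28, limma, adjusted p = 0.0274), and 1 among the 12 groups, and Myh1 turned to 0.0974 for gamma week 1. Without sham week 1 replicate 3 and sham week 4 replicate 1 together, 1 member was called among the 12 groups, and Tnnt1 turned for gamma over 3 weeks, from −0.127 to 0.0128 over all fits without arrays. Leaving out single arrays gave 0 to 1 members called among the 12 groups and 0 to 1 between weeks 4 and 1. The medians then spanned −2.18 to 0.0632 for 10 cGy Si at week 1, and 0.129 to 2.32 for gamma at week 12. Single genes that changed sign without 1 array spanned, for 30 cGy Si against gamma, −0.0917 to 0.13 (Myl2) and −0.104 to 0.058 (Tnnc1). For 30 cGy Si against sham they spanned −0.367 to 0.648 (Myh1, week 1), −0.152 to 0.887 (Myh4, week 12) and −0.64 to 0.0614 (Myoz1, week 12). For 10 cGy Si they spanned −0.367 to 0.792 (Myh2, week 1), −1.61 to 0.361 (Myoz1, week 4), −1.004 to 0.147 (Myl1, week 4), −0.0186 to 0.588 (Casq1, week 12) and −0.854 to 0.158 (Myot, week 12). For gamma they spanned −0.076 to 0.231 (Tnnt1, week 12) and −0.0442 to 0.117 (Tnnc1, 3 weeks). The cause of these changes was not tested. Leaving Mybpc1 out of the slow score was an alternative chosen after seeing the data. It moved fast minus slow scores by at most 0.27, against a within-group SD of 1.56. That SD comes mostly from the fast fibre genes, so this check says little about the slow score. The slow score of gamma week 12 replicate 2 was 1.11 with Mybpc1 and 0.85 without it. For each of 36 arrays, correlations with arrays of other groups were averaged by replicate number, 1 to 3. For 11 of the 36 the highest average was that of their own number. The first component held 97.7% of the variance on linear values and 94.6% over members above the filter.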

Other observations

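The following genes were picked after their values were seen. Gamma week 12 replicate 2, the array with the highest slow fibre levels, exceeded every other array by more than 0.5 log2 steps for 9 of 18820 genes. Of these, 6 were muscle genes of the list above (Mb, Myh2, Mybpc1, Myh1, Myl2 and Myh7). The other 3 were Itih2 (8.75, against at most 7.93 elsewhere), R3hdml (8.57, against 7.89) and Zfp979 (7.05, against 6.54). Myoz2, a Z-disc protein of slow fibres and heart that was not a member, measured 4.28 there, against at most 3.92 elsewhere. Hspb7, a small heat shock protein of heart and muscle, measured 5.61, against at most 5.17.

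The muscle-specific ubiquitin ligase Trim63 spanned 10.5-fold over the 37 arrays and was highest in sham week 4 replicate 3, while its relative Trim55 spanned 6.17-fold and was highest in gamma week 12 replicate 2. Both had means below the filter and were not tested. The milk protein gene Csn2 spanned 28.8-fold, with its highest value in gamma week 4 replicate 2 and a correlation of −0.11 with the muscle genes over 37 arrays.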
